A study of Homo sapiens with 16 samples.

Results

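The genes described are 39 that take part in the integrated stress response and in amino acid supply: ATF4 and 9 further stress factors and feedback genes, 11 enzymes of amino acid and one-carbon metabolism, 6 amino acid transporters, and 12 genes of tRNA export and charging. They are a list of gene names, drawn up with earlier results of these data known. All 39 were found among the 23669 genes of the count table, and all 39 passed the filter on low counts, which left 15520 genes for testing. The table uses older symbols for the tRNA synthetases (AARS for AARS1, and likewise for the others).

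RNA was measured in HCT116, an established human colorectal carcinoma cell line. Its 4 derivatives were shNT, which carries an shRNA with no target; shTIP60, with a hairpin directed at the acetyltransferase TIP60 (gene KAT5); shCDK8, with one directed at the Mediator kinase CDK8; and HIF1A-/-, a line without HIF1A, written HIF1A-null from here on. The 3 shRNA lines express their hairpins stably, and the HIF1A-null label names no shRNA. Each line was kept at 21% oxygen (normoxia) or at 1% oxygen for 24 h (hypoxia), with 2 libraries per combination, described as independent biological replicates, and 16 in all. Each target is represented by 1 altered line, so effects of the target, of the line's history and of its vector cannot be told apart. In bulk RNA of this kind, fewer cells that express a gene and less RNA per cell also cannot be told apart.

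When cells lack amino acids, misfold protein in the endoplasmic reticulum, lack haem or sense double-stranded RNA, kinases phosphorylate the translation factor eIF2, which slows protein synthesis as a whole while the mRNA of the transcription factor ATF4 is translated more. ATF4 then switches on genes for amino acid synthesis, amino acid import and tRNA charging, together with DDIT3 (CHOP), TRIB3 and PPP1R15A, which shape or end the response. Severe hypoxia is a known trigger of this pathway through the endoplasmic reticulum kinase PERK. ATF4 is controlled largely by translation and protein stability, which RNA counts do not measure.

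Library totals ran from 26620086 to 39401494 counts. Levels are in CPM, that is, counts made comparable between libraries of unequal total and composition, given first for library A and then for library B of a group. These letters stand for the lower and the higher series of library numbers in the table and are not replicate numbers. Changes are log2 fold changes ± standard error with p adjusted over all genes tested, from edgeR's quasi-likelihood test with n = 2 libraries per group, and a gene is called at an adjusted p below 0.05. KAT5 was at 19.1 to 21.96 CPM in the 4 shTIP60 libraries and 72.0 to 112 CPM in the other 12, and CDK8 was at 5.45 to 6.80 CPM in the shCDK8 libraries and 21.9 to 35.1 CPM in the others. HIF1A was at 13.02 and 14.1 CPM in HIF1A-null normoxia against 107 and 108 CPM in shNT normoxia. In hypoxia the difference was small, with 40.1 and 57.6 CPM in HIF1A-null against 61.2 and 70.5 CPM in shNT (-0.43 ± 0.15, adjusted p = 0.0283). The counts do not say which part of the gene these reads come from, and the deleted part is not given in the sources used here, so in hypoxia HIF1A counts are a weak check of that label. Epithelial EPCAM was at 129 to 215 CPM in all 16 libraries, villin (VIL1) was at or below 0.339 CPM, the leukocyte genes PTPRC and CD3E had at most 2 counts, and the fibroblast gene COL1A1 and the macrophage-associated gene CD68 were present at 21.5 to 81.9 and 7.11 to 117 CPM.

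In hypoxia most of the 39 genes rose in the HIF1A-null line and few did in the other 3. In HIF1A-null 29 rose and 1 fell, where 38.0% of all genes tested were called in either direction, 18.9% higher and 19.1% lower. In shNT cells 5 rose and 6 fell against a background of 40.7% (20.7% higher and 20.0% lower). In shCDK8 cells 3 rose and 2 fell against 24.8% (13.8% and 11.0%), and in shTIP60 cells 8 rose and 8 fell against 39.2% (19.4% and 19.8%). The shCDK8 count of 5 fell to 1 without hypoxia library B, 3 without hypoxia library A and 2 without normoxia library B, and the shTIP60 count of 16 to 10 without normoxia library A. Scaled by library totals alone, which moved the median change of all genes to -0.200 in shNT, -0.275 in HIF1A-null, -0.164 in shCDK8 and -0.233 in shTIP60, the split became 3 higher and 13 lower in shNT, 23 and 3 in HIF1A-null, 2 and 8 in shCDK8, and 7 and 11 in shTIP60. The median log2 change of the 39 genes was 0.90 in HIF1A-null cells, beside -0.066 in shNT, -0.075 in shCDK8 and 0.071 in shTIP60, where the median over all genes lay between -0.016 and -0.00067.

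Whether the HIF1A-null response differed from that of shNT was tested directly, as the difference of the log2 changes. It was higher in HIF1A-null cells for 27 of the 39 genes and lower for 0, with a median of 0.96. Over all genes tested, 16.4% were called, 7.53% higher and 8.92% lower. At an unadjusted p below 0.05, 29 of the 39 were called. By role, the difference was higher for 8 of 10 stress factors, 4 of 11 enzymes, 3 of 6 transporters and 12 of 12 genes of tRNA export and charging. The response differences of shCDK8 and shTIP60 against shNT held 0 called members each, where 0.0387% of all genes were called for shCDK8 (0.00644% higher, 0.0322% lower) and 0.0322% for shTIP60 (0.00644% higher, 0.0258% lower). At an unadjusted p below 0.05 those counts were 5 and 3, DESeq2 called 1 member in each, and the alternatives run called up to 4 and 1. These comparisons share the shNT libraries.

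**Figure D1:**
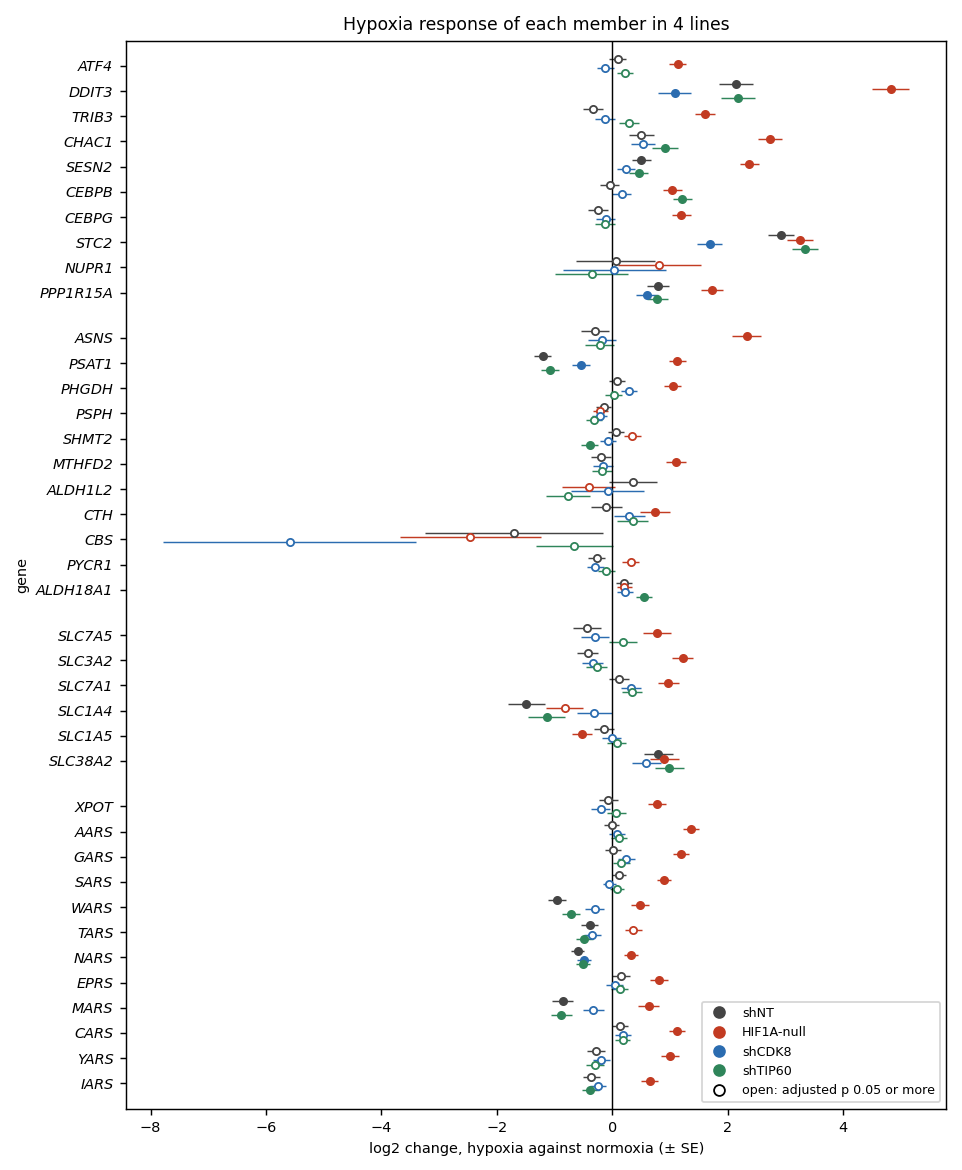
Log2 change of each of the 39 genes between hypoxia and normoxia (x axis, ± SE) in the 4 lines, with 2 libraries per group; filled points were called at an adjusted p below 0.05. The red HIF1A-null points of 29 genes are filled to the right of 0, while most points of the other 3 lines lie near 0 or to its left. The fitted CBS values rest on groups at or near 0 counts and give no size.

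The same 2 HIF1A-null hypoxia libraries also stood apart in level. Level and change rest on the same libraries and are not independent. For 29 of the 39 genes the highest group mean was that of HIF1A-null hypoxia, which was the highest group for 19.8% of all genes tested. Both of its libraries lay above all 14 others for 25 of the 39 genes, as they did for 9.07% of all genes. The exceptions by highest mean were spread over 5 other groups, with shTIP60 normoxia highest for 3 genes and shNT normoxia, HIF1A-null normoxia, shTIP60 hypoxia and shCDK8 hypoxia for 1 or 2 each.

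**Figure D2:**
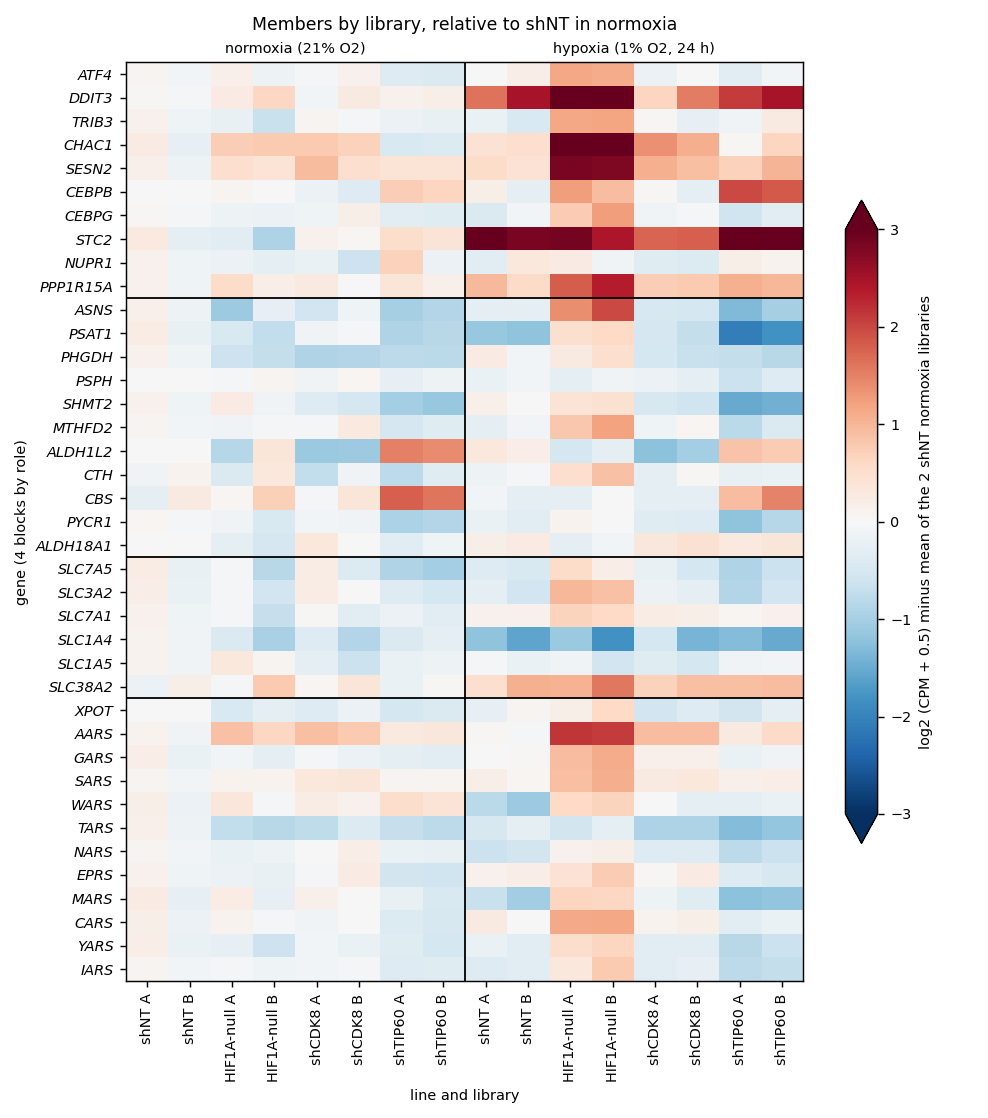
Level of each of the 39 genes (rows, in 4 blocks by role) in each of the 16 libraries (columns), as log2 of CPM plus 0.5 minus the mean of the 2 shNT normoxia libraries; red is higher and blue lower, and the scale ends at -3 and 3. The 2 HIF1A-null hypoxia columns are red for most rows, and STC2 and DDIT3 are red in all 8 hypoxia columns.

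Dimers of ATF4 with C/EBP factors are known to bind a composite element, the C/EBP-ATF or amino acid response element. The letters TGATGNAA were searched on both strands of promoter windows from 250 bases before to 50 after each start site (RefSeq, GRCh38.p14), which were at hand for 33 of the 39 genes. They were found in 14 of the 33 (42.4%) and in 3.62% of all 35116 promoters of that length, or in 4.46% of the 27305 genes they belong to, counted per gene as the members are. The form TGATGCAA, a subset of these matches, was in 10 of the 33 (30.3%) and in 0.866% of all promoters (1.08% of genes). The 14 genes were CHAC1, CEBPG, ASNS, SLC3A2, SLC7A1, SLC1A4, SLC1A5, AARS, GARS, TARS, NARS, MARS, CARS and IARS. The endoplasmic reticulum stress element, which belongs to the ATF6 branch, was in 0 of the 33 and in 0.0769% of all promoters (0.0916% of genes). A pattern that rare would hardly be met in 33 genes, so the 0 says nothing about control by ATF6. A match describes letters in a window and is no measured binding site. The HIF1A-null response was above that of shNT for 12 of the 14 genes with the element, for 14 of the 19 without it and for 1 of the 6 with no window. These 4 windows upstream of the start are shown because they let the shared element be compared across enzymes of glutathione breakdown and asparagine synthesis and a pair of synthetases; capitals mark the match, read 5′ to 3′ on the gene's strand, on GRCh38.p14.
CHAC1 (chr15:40953222-40953309, plus strand): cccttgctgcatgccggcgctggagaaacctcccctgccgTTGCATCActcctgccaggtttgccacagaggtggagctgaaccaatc
ASNS (chr7:97872429-97872516, minus strand): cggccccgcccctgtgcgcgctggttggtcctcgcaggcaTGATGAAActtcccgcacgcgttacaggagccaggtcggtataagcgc
AARS (chr16:70289646-70289733, minus strand): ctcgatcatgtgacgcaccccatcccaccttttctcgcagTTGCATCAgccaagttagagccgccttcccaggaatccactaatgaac
IARS (chr9:92293698-92293750, minus strand): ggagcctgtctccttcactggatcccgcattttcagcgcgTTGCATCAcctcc
The match began 209 bases before the start site of CHAC1, 68 before that of ASNS, 187 before that of AARS and 13 before that of IARS. In CHAC1, AARS and IARS it lies on the opposite strand, so it reads TTGCATCA here, while ASNS carries TGATGAAA.

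Among the stress factors and feedback genes, 9 of 10 rose in hypoxia in HIF1A-null cells, against 4 in shNT, 3 in shCDK8 and 6 in shTIP60, and 0 fell in any line. ATF4, the transcription factor at the centre of the pathway, lies at chr22:39915700-39918688 on the plus strand (GRCh37, the build of the counts). In normoxia ATF4 was at 378 and 338 CPM in shNT, 399 and 319 in HIF1A-null, 348 and 393 in shCDK8, and 274 and 264 in shTIP60. In hypoxia it was at 357 and 410.4 CPM in shNT, 799.9 and 780.4 in HIF1A-null, 319 and 362 in shCDK8, and 289 and 339 in shTIP60. Both HIF1A-null hypoxia libraries lay far above the 14 others, which overlapped between normoxia and hypoxia. ATF4 RNA rose by 1.14 ± 0.15 (adjusted p = 2.75e-05) in HIF1A-null cells, while the change in shNT was 0.099 ± 0.15 (adjusted p = 0.621), and the difference was 1.04 ± 0.21 (adjusted p = 0.00336). Reads of ATF4 could also come from its 4 named pseudogenes if the counting allowed it.

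DDIT3 encodes CHOP, a factor that favours cell death when stress lasts. Its normoxia levels were 14.01 and 13.4 CPM in shNT, 16.5 and 21.3 in HIF1A-null, 12.98 and 16.6 in shCDK8, and 15.01 and 15.7 in shTIP60. Its hypoxia levels were 43.6 and 78.3 CPM in shNT, 453 and 618 in HIF1A-null, 21.9 and 40.8 in shCDK8, and 60.2 and 78.99 in shTIP60. All 8 hypoxia libraries were above all 8 normoxia libraries, and the 2 HIF1A-null hypoxia libraries exceeded all 14 others. The rise was 4.83 ± 0.32 (adjusted p = 6.52e-08) in HIF1A-null, 2.15 ± 0.29 (adjusted p = 3.28e-05) in shNT, 2.18 ± 0.29 (adjusted p = 3.25e-05) in shTIP60 and 1.08 ± 0.29 (adjusted p = 0.0119) in shCDK8. The HIF1A-null response exceeded that of shNT by 2.68 ± 0.40 (adjusted p = 0.000499). The rise in shCDK8 lost its call without shCDK8 normoxia library A (0.92, adjusted p = 0.087) or without shCDK8 hypoxia library B (0.57, adjusted p = 0.237). The 3′ ends of DDIT3 and the synthetase gene MARS overlap on opposite strands at chr12:57910376-57911221 (GRCh37), where 219 exonic bases of DDIT3 are shared. The strand setting of the counting is not given in the sources used here, so reads there cannot be assigned to either gene.

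TRIB3 encodes a pseudokinase that binds ATF4 and dampens it. TRIB3 stood at 52.5 and 44.3 CPM in shNT, 41.5 and 30.4 in HIF1A-null, 50.7 and 46.7 in shCDK8, and 42.7 and 41.3 in shTIP60 in normoxia. It stood at 42.2 and 34.99 CPM in shNT, 109 and 111 in HIF1A-null, 49.1 and 40.4 in shCDK8, and 45.1 and 58.00 in shTIP60 in hypoxia. The HIF1A-null line had the lowest library in normoxia and the 2 highest in hypoxia. The response was 1.61 ± 0.17 (adjusted p = 5.34e-06) in HIF1A-null and -0.33 ± 0.17 (adjusted p = 0.137) in shNT, a difference of 1.94 ± 0.24 (adjusted p = 0.000101).

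CHAC1 encodes an enzyme that breaks down glutathione and is among the most responsive known ATF4 targets. Levels of CHAC1 in normoxia were 4.84 and 3.30 CPM in shNT, 7.04 and 7.26 in HIF1A-null, 7.28 and 6.75 in shCDK8, and 2.79 and 2.86 in shTIP60. Levels in hypoxia were 5.55 and 5.92 CPM in shNT, 47.5 and 47.9 in HIF1A-null, 11.2 and 9.12 in shCDK8, and 4.15 and 6.48 in shTIP60. The highest library outside HIF1A-null hypoxia was the shCDK8 hypoxia library at 11.2 CPM. The rise was 2.74 ± 0.21 (adjusted p = 2.01e-07) in HIF1A-null and 0.91 ± 0.22 (adjusted p = 0.00451) in shTIP60, where it lost its call without shTIP60 hypoxia library B (0.55, adjusted p = 0.112). In shNT the change was 0.51 ± 0.22 (adjusted p = 0.0746), and the HIF1A-null response was higher by 2.23 ± 0.30 (adjusted p = 0.000189).

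SESN2, a sestrin that senses leucine and restrains the growth kinase mTORC1, had normoxia levels of 20.05 and 16.2 CPM in shNT, 25.9 and 24.1 in HIF1A-null, 35.5 and 25.9 in shCDK8, and 24.2 and 24.1 in shTIP60. Its hypoxia levels were 26.8 and 24.5 CPM in shNT, 132 and 128 in HIF1A-null, 38.4 and 34.2 in shCDK8, and 29.4 and 37.1 in shTIP60. The 2 HIF1A-null hypoxia libraries were again above the other 14. SESN2 rose by 2.38 ± 0.17 (adjusted p = 1.09e-07) in HIF1A-null, 0.50 ± 0.16 (adjusted p = 0.023) in shNT and 0.46 ± 0.16 (adjusted p = 0.0339) in shTIP60, and the difference between HIF1A-null and shNT was 1.88 ± 0.23 (adjusted p = 9.65e-05). The small rise in shNT lost its call without shNT normoxia library B (0.35, adjusted p = 0.198) or shNT hypoxia library A (0.43, adjusted p = 0.108). That in shTIP60 did so without normoxia library A (0.46, adjusted p = 0.133), normoxia library B (0.46, adjusted p = 0.126) or hypoxia library B (0.28, adjusted p = 0.312).

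The other stress genes did not all follow this pattern. STC2, a secreted glycoprotein gene also known to respond to HIF1, rose in all 4 lines, by 2.93 in shNT, 3.26 in HIF1A-null, 3.34 in shTIP60 and 1.69 in shCDK8, and its response did not pass the test of a difference between HIF1A-null and shNT (0.34 ± 0.29, adjusted p = 0.467). PPP1R15A, the phosphatase subunit GADD34 that reverses eIF2 phosphorylation, also rose in all 4 lines, from 0.61 in shCDK8 to 1.73 in HIF1A-null, and its difference between HIF1A-null and shNT was 0.94 ± 0.26 (adjusted p = 0.023). The shCDK8 call was lost without shCDK8 normoxia library B or either shCDK8 hypoxia library (adjusted p up to 0.184 over the alternatives), and the difference without HIF1A-null normoxia or hypoxia library B, shNT normoxia library A or shNT hypoxia library B (up to 0.113). Together with DDIT3 these were the 3 members called higher in every line. The C/EBP factor CEBPB rose in HIF1A-null (1.05 ± 0.17, adjusted p = 0.00017) and in shTIP60 (1.22 ± 0.17, adjusted p = 3.89e-05), and its shTIP60 libraries were the highest of all in hypoxia at 298 and 271 CPM. CEBPG, a C/EBP partner of ATF4, was called in HIF1A-null (1.20 ± 0.17, adjusted p = 6.14e-05) and in no other line, and its difference from shNT was 1.45 ± 0.24 (adjusted p = 0.000951). NUPR1 had 2 to 29 counts per library and was called in no comparison.

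**Figure D3:**
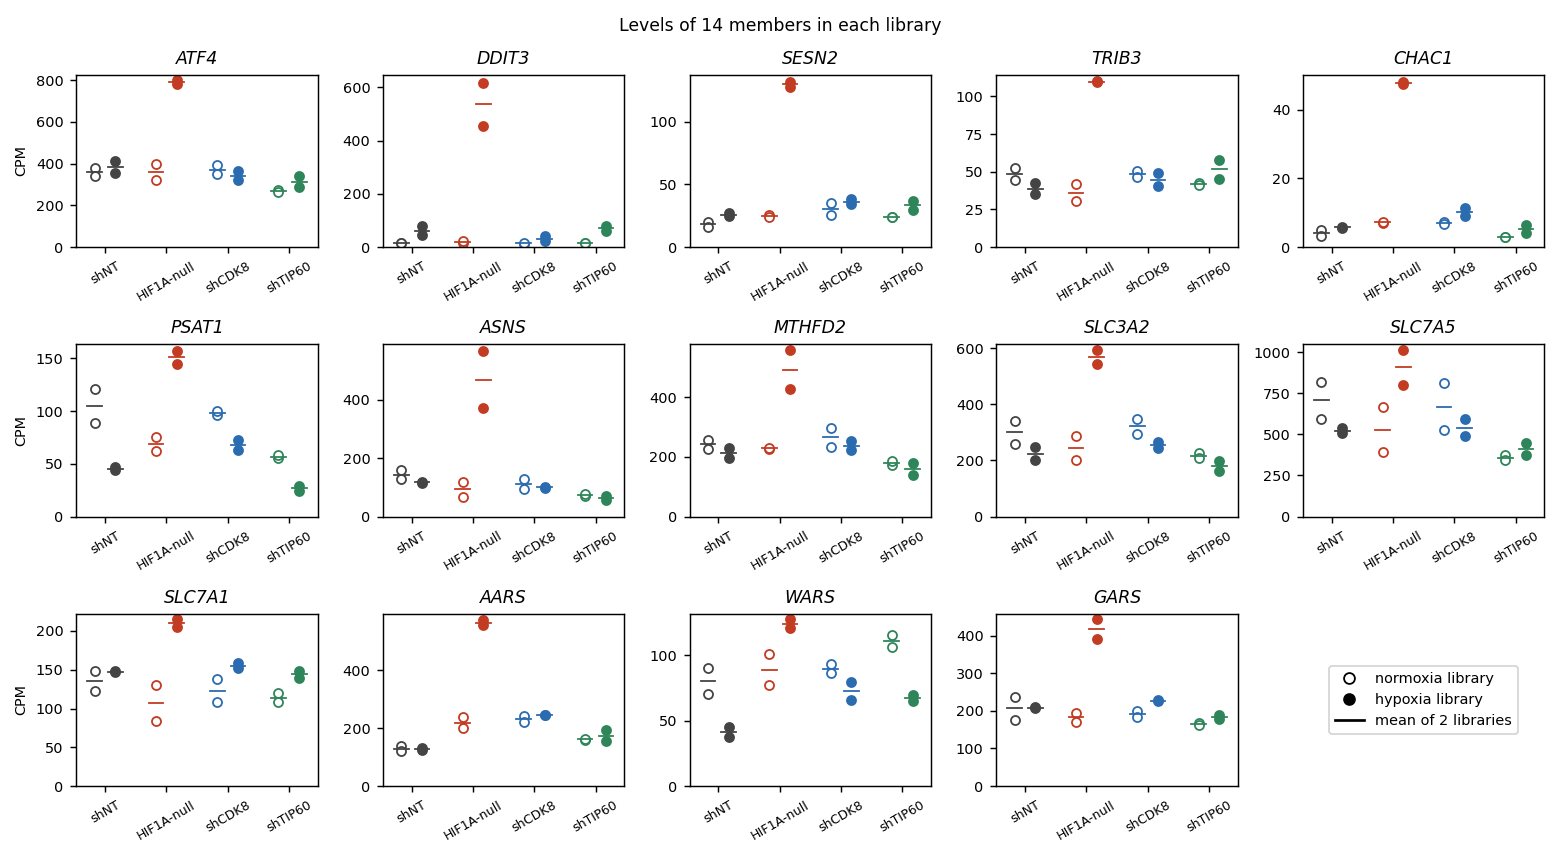
CPM (y axis, from 0 in every panel) of 14 genes in each of the 16 libraries, with open points for normoxia, filled points for hypoxia and a bar at the mean of the 2 libraries. In each panel the 2 filled red points of HIF1A-null are the highest or near the highest, and DDIT3 reaches 453 and 618 CPM there. Apart from ATF4 and DDIT3, the genes were picked per role for the smallest p in the HIF1A-null response difference, which favours such a pattern.

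Of the 11 enzymes, 5 rose in HIF1A-null hypoxia and 0 fell, while in shNT 0 rose and 1 fell. ASNS makes asparagine from aspartate and glutamine. ASNS levels in normoxia were 159 and 127 CPM in shNT, 66.6 and 119.9 in HIF1A-null, 94.8 and 130.2 in shCDK8, and 71.2 and 76.9 in shTIP60. In hypoxia they were 117 and 117 CPM in shNT, 372 and 565 in HIF1A-null, 102 and 97.6 in shCDK8, and 56.6 and 70.6 in shTIP60. In the other 3 lines no hypoxia library was above the highest normoxia library of its line. ASNS rose by 2.33 ± 0.25 (adjusted p = 6.21e-06) in HIF1A-null against -0.29 ± 0.24 (adjusted p = 0.363) in shNT, and the difference, 2.62 ± 0.35 (adjusted p = 0.000189), was the largest among the enzymes. An annotated non-coding gene overlaps 2374 exonic bases of ASNS on the same strand, and ASNS has 5 named pseudogenes, so its counts are uncertain in part.

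PSAT1, the transaminase of serine synthesis, moved in opposite directions. Its normoxia levels were 121 and 88.96 CPM in shNT, 75.4 and 62.5 in HIF1A-null, 96.7 and 100.4 in shCDK8, and 55.2 and 58.1 in shTIP60. Its levels in hypoxia were 46.6 and 44.4 CPM in shNT, 145 and 157 in HIF1A-null, 72.8 and 63.2 in shCDK8, and 24.4 and 29.1 in shTIP60. In shNT, shCDK8 and shTIP60 both hypoxia libraries were below both normoxia libraries, and in HIF1A-null both were above. PSAT1 fell in shNT (-1.21 ± 0.15, adjusted p = 1.91e-05), shTIP60 (-1.08 ± 0.16, adjusted p = 6.05e-05) and shCDK8 (-0.54 ± 0.15, adjusted p = 0.017) and rose in HIF1A-null (1.13 ± 0.15, adjusted p = 4.18e-05), a difference from shNT of 2.34 ± 0.22 (adjusted p = 7.26e-06). The fall in shCDK8 lost its call without shCDK8 normoxia library B (-0.51, adjusted p = 0.0836) or hypoxia library B (-0.44, adjusted p = 0.16). PHGDH, which starts the same pathway, rose in HIF1A-null (1.05 ± 0.14, adjusted p = 4.31e-05) with a change of 0.089 ± 0.14 (adjusted p = 0.652) in shNT. PSPH, which completes it, was called in no line, with changes from -0.32 to -0.15.

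MTHFD2, a mitochondrial folate enzyme of one-carbon metabolism, stood at 258 and 228 CPM in shNT, 227 and 231 in HIF1A-null, 233 and 299 in shCDK8, and 172 and 188 in shTIP60 in normoxia. In hypoxia MTHFD2 stood at 196 and 229 CPM in shNT, 429 and 558 in HIF1A-null, 223 and 253 in shCDK8, and 139 and 178 in shTIP60. Both HIF1A-null hypoxia libraries were the highest of the 16. The rise there was 1.11 ± 0.17 (adjusted p = 0.000128), against -0.19 ± 0.17 (adjusted p = 0.386) in shNT, and the difference was 1.30 ± 0.24 (adjusted p = 0.002). MTHFD2 shares 1324 exonic bases with SLC4A5 on the opposite strand and has 7 named pseudogenes. SHMT2, which supplies its one-carbon units from serine, changed by 0.35 ± 0.14 (adjusted p = 0.0582) in HIF1A-null and was not called there. CTH, an enzyme of cysteine synthesis, rose in HIF1A-null by 0.74 ± 0.26 (adjusted p = 0.0344), but not without normoxia A or hypoxia B of that line (adjusted p up to 0.327), and its difference from shNT did not pass (0.84 ± 0.37, adjusted p = 0.136). The proline enzymes PYCR1 and ALDH18A1 had changes of 0.32 ± 0.15 (adjusted p = 0.0948) and 0.21 ± 0.14 (adjusted p = 0.229) in HIF1A-null. The folate enzyme gene ALDH1L2 had 8 to 143 counts per library and CBS, another enzyme on the way to cysteine, 0 to 51, and neither was called between hypoxia and normoxia in any line.

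Of the 6 amino acid transporters, 4 rose and 1 fell in HIF1A-null hypoxia. SLC3A2 and SLC7A5 encode the heavy and light chains of the LAT1 exchanger, which imports leucine and other large neutral amino acids. SLC3A2 levels in normoxia were 341 and 259.9 CPM in shNT, 287 and 201 in HIF1A-null, 348 and 295 in shCDK8, and 226 and 208 in shTIP60. In hypoxia SLC3A2 levels were 247 and 201 CPM in shNT, 593 and 545 in HIF1A-null, 265 and 245 in shCDK8, and 162 and 198 in shTIP60. The 2 conditions did not overlap in any of the 4 lines, with hypoxia higher in HIF1A-null and lower in the other 3. SLC3A2 rose by 1.22 ± 0.18 (adjusted p = 0.000111) in HIF1A-null against -0.42 ± 0.18 (adjusted p = 0.0757) in shNT, a difference of 1.65 ± 0.26 (adjusted p = 0.000697).

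SLC7A5 was at 819 and 597 CPM in shNT, 668 and 392 in HIF1A-null, 812 and 526 in shCDK8, and 373 and 346 in shTIP60 in normoxia. It was at 537 and 507 CPM in shNT, 1017 and 802 in HIF1A-null, 595 and 488 in shCDK8, and 374 and 446 in shTIP60 in hypoxia. Normoxia libraries of shNT, HIF1A-null and shCDK8 spread widely, and the higher shNT and shCDK8 ones lay above HIF1A-null hypoxia library B. The rise in HIF1A-null was 0.78 ± 0.24 (adjusted p = 0.0192) and the difference from shNT 1.22 ± 0.34 (adjusted p = 0.0244). The rise lost its call without HIF1A-null normoxia library B (0.44, adjusted p = 0.19) or hypoxia library A (0.60, adjusted p = 0.122). The difference lost it without shNT normoxia library A (0.97, adjusted p = 0.124), shNT hypoxia library A (1.26, adjusted p = 0.0528) or B (1.18, adjusted p = 0.0618), or, of HIF1A-null, normoxia library B (0.89, adjusted p = 0.0908) or hypoxia library A (1.04, adjusted p = 0.0678).

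SLC7A1, the main importer of arginine and lysine, stood at 148 and 123 CPM in shNT, 130.2 and 83.7 in HIF1A-null, 138 and 108 in shCDK8, and 119.6 and 108 in shTIP60 in normoxia. Hypoxia levels of SLC7A1 were 148 and 147 CPM in shNT, 216 and 205 in HIF1A-null, 158 and 152 in shCDK8, and 139.9 and 149 in shTIP60. The 2 HIF1A-null hypoxia libraries were the highest, and the next was a shCDK8 hypoxia library at 158 CPM. SLC7A1 rose there by 0.98 ± 0.18 (adjusted p = 0.000524), and the difference from shNT was 0.85 ± 0.25 (adjusted p = 0.0291). That difference lost its call when any of 6 libraries was left out, with values of 0.57 to 0.89 and adjusted p of 0.0565 to 0.133: both HIF1A-null hypoxia libraries, HIF1A-null normoxia library B, both shNT hypoxia libraries and shNT normoxia library A. SLC38A2, a glutamine transporter gene that amino acid shortage is known to induce, rose in shNT (0.80 ± 0.25, adjusted p = 0.0179), HIF1A-null (0.90 ± 0.25, adjusted p = 0.00984) and shTIP60 (0.99 ± 0.25, adjusted p = 0.00532), and its responses in HIF1A-null and shNT differed by 0.10 ± 0.35 (adjusted p = 0.879). The SLC38A2 calls were lost in shNT when its normoxia library A or hypoxia B was left out (adjusted p up to 0.203), in HIF1A-null likewise (up to 0.133), and in shTIP60 without normoxia library A (0.0652). SLC1A4, a transporter of alanine, serine and cysteine, fell in shNT (-1.49 ± 0.31, adjusted p = 0.00145) and shTIP60 (-1.14 ± 0.31, adjusted p = 0.00933), the latter not without shTIP60 normoxia or hypoxia library B (adjusted p up to 0.0781). In HIF1A-null SLC1A4 changed by -0.82 and was not called, with 4.87 and 2.82 CPM in hypoxia below 8.08 and 5.49 CPM in normoxia. Its response difference between HIF1A-null and shNT (0.66) did not pass. SLC1A5, the ASCT2 glutamine transporter, was the 1 member called lower in HIF1A-null (-0.53 ± 0.17, adjusted p = 0.0215), a call lost without normoxia A or hypoxia B of that line.

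Of the 12 genes of tRNA export and charging, 11 rose in HIF1A-null hypoxia and 0 fell, and in shNT 0 rose and 4 fell. Each synthetase attaches 1 amino acid to its tRNAs (EPRS charges both glutamate and proline), and XPOT carries tRNAs out of the nucleus. AARS, the alanine enzyme, was at 139 and 119.6 CPM in shNT, 237 and 199.6 in HIF1A-null, 241 and 222 in shCDK8, and 159 and 163 in shTIP60 in normoxia. In hypoxia AARS was at 132 and 125 CPM in shNT, 573 and 556 in HIF1A-null, 245 and 244 in shCDK8, and 155 and 194 in shTIP60. HIF1A-null and shCDK8 already stood above shNT in normoxia, and HIF1A-null rose further in hypoxia. AARS rose in HIF1A-null by 1.37 ± 0.14 (adjusted p = 3.33e-06), against -0.011 ± 0.14 (adjusted p = 0.961) in shNT, a difference of 1.38 ± 0.20 (adjusted p = 0.000295).

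GARS, the glycine enzyme, had normoxia levels of 237 and 177 CPM in shNT, 195 and 170.1 in HIF1A-null, 199 and 182 in shCDK8, and 168 and 162 in shTIP60. Its levels in hypoxia came to 207 and 209.9 CPM in shNT, 389.9 and 444 in HIF1A-null, 227 and 226 in shCDK8, and 179 and 189.9 in shTIP60. The 14 libraries outside HIF1A-null hypoxia all lay between 162 and 237 CPM. GARS rose in HIF1A-null by 1.19 ± 0.14 (adjusted p = 1.45e-05), and the difference from shNT was 1.18 ± 0.20 (adjusted p = 0.00122).

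WARS, the tryptophan enzyme, is also known to be induced by interferon. Normoxia levels of WARS were 90.1 and 70.00 CPM in shNT, 101 and 77.3 in HIF1A-null, 93.1 and 86.3 in shCDK8, and 116 and 106 in shTIP60. Hypoxia levels were 45.1 and 37.2 CPM in shNT, 121 and 127 in HIF1A-null, 79.2 and 65.96 in shCDK8, and 65.3 and 69.6 in shTIP60. In shNT, shCDK8 and shTIP60 both hypoxia libraries were below both normoxia libraries. WARS fell in shNT (-0.96 ± 0.16, adjusted p = 0.00021) and shTIP60 (-0.72 ± 0.16, adjusted p = 0.00205) and rose in HIF1A-null (0.48 ± 0.16, adjusted p = 0.0247), a difference from shNT of 1.44 ± 0.22 (adjusted p = 0.000657). The rise in HIF1A-null lost its call without its normoxia library B (0.30, adjusted p = 0.205) or hypoxia library B (0.44, adjusted p = 0.106), whereas the difference from shNT was called under every alternative run.

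The methionine gene MARS fell in shNT (-0.86 ± 0.18, adjusted p = 0.00155) and rose in HIF1A-null (0.63 ± 0.18, adjusted p = 0.0125), beside the overlap with DDIT3 described above. The asparagine gene NARS also fell in shNT (-0.60 ± 0.12, adjusted p = 0.000919) and was called higher in HIF1A-null (0.33 ± 0.12, adjusted p = 0.0407). Leaving out any 1 of the 4 HIF1A-null libraries ended that call of NARS (adjusted p up to 0.749), and leaving out HIF1A-null normoxia library B ended that of MARS (up to 0.123), whereas the differences from shNT, 0.93 and 1.49, were called under every alternative run. PSAT1, WARS, NARS and MARS were thus the 4 members called lower in shNT and higher in HIF1A-null. For the genes of cysteine (CARS), tyrosine (YARS), serine (SARS), isoleucine (IARS) and glutamate with proline (EPRS), the rise in HIF1A-null ran from 0.65 to 1.12, with no call in shNT and with a higher difference for each. The SARS difference (0.78) was not called under every alternative run. The IARS rise lost its call without HIF1A-null hypoxia library B (adjusted p = 0.0544), and the difference of EPRS (0.66 ± 0.21, adjusted p = 0.0435) lost it without any 1 of 6 of the 8 libraries, HIF1A-null hypoxia library A and shNT normoxia library B apart (up to 0.197). The threonine gene TARS was the 1 synthetase not called higher in HIF1A-null (0.36 ± 0.15, adjusted p = 0.0647), and it fell in shNT (-0.39 ± 0.15, adjusted p = 0.0451), but not without shNT normoxia library A (-0.24, adjusted p = 0.352), hypoxia library A (-0.31, adjusted p = 0.21) or hypoxia library B (-0.48, adjusted p = 0.0635). Its difference, 0.75 ± 0.21 (adjusted p = 0.0231), lost its call without shNT normoxia library A (0.60, adjusted p = 0.125), shNT hypoxia library A (0.67, adjusted p = 0.0798), HIF1A-null normoxia library B (0.71, adjusted p = 0.0644) or HIF1A-null hypoxia library B (0.62, adjusted p = 0.0957). XPOT rose in HIF1A-null by 0.77 ± 0.16 (adjusted p = 0.00143), and its difference from shNT, 0.84 ± 0.23 (adjusted p = 0.0198), lost its call without any 1 of 5 of the 8 libraries, HIF1A-null normoxia library B, HIF1A-null hypoxia library A and shNT hypoxia library B apart (up to 0.0968).

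The cytosolic synthetases outside the list and the mitochondrial ones were set beside these 11. The median change in HIF1A-null hypoxia was 0.81 for the 11 synthetases, of which 10 rose. It was 0.15 for the 9 other cytosolic synthetase genes, of which 1 rose, and -0.10 for the 17 mitochondrial ones, of which 3 rose and 5 fell. Over all genes tested, 18.9% rose and 19.1% fell there. In shNT the 3 medians were -0.275, -0.329 and -0.288. In level the groups were less far apart. Against shNT hypoxia, HIF1A-null hypoxia was higher for 10 of the 11 (median 0.92) and 5 of the 9 with 1 lower (median 0.40). For the 17 mitochondrial genes 3 were higher and 1 lower (median 0.028), where 20.3% of all genes were higher and 20.8% lower. The response difference between HIF1A-null and shNT was higher for 11 of the 11, for 2 of the 9 with 1 lower, and for 2 of the 17 with 1 lower. Over all genes 7.53% were higher and 8.92% lower. FARSB (0.96 ± 0.17, adjusted p = 0.00176) and LARS (0.73 ± 0.21, adjusted p = 0.0257) had the higher differences among the 9, and DARS the lower (-0.76 ± 0.24, adjusted p = 0.0394). The difference between these groups of genes was not tested. The 11 come from a list drawn up with earlier results of these data known, so the split is not independent of these data.

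**Figure D4:**
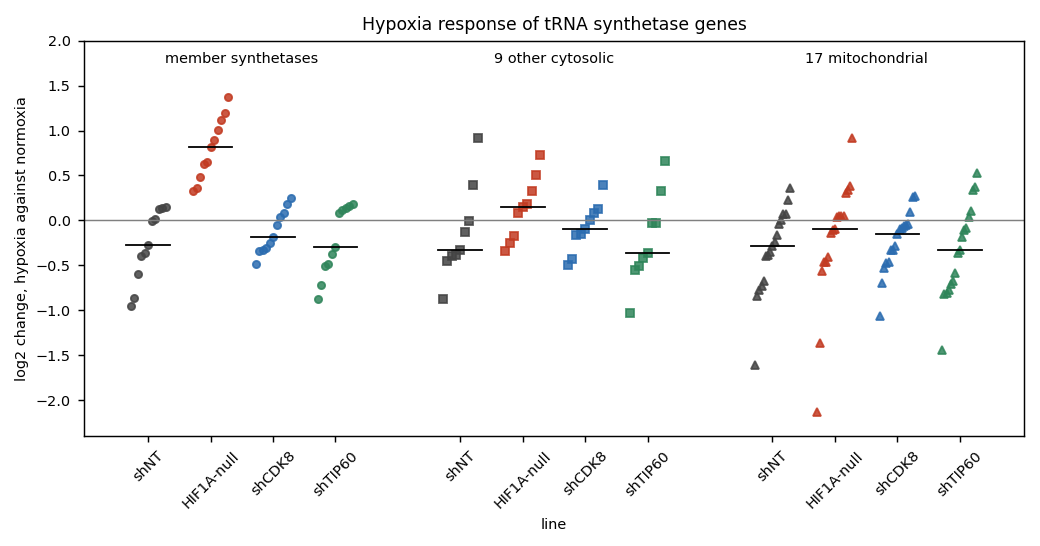
Log2 change between hypoxia and normoxia (y axis) of each tRNA synthetase gene, for the 11 of the list, 9 other cytosolic and 17 mitochondrial genes, in the 4 lines; each point is a gene and bars are medians. The 11 genes have a median of 0.81 in HIF1A-null and all lie above 0 there, while the other medians lie between -0.36 and 0.15. The list was drawn up with earlier results of these data known.

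Neighbouring parts of the stress pathway were read from lists of other genes. Over all genes tested, 18.9% rose and 19.1% fell in HIF1A-null hypoxia, and 20.7% rose and 20.0% fell in shNT. In the difference between these lines 7.53% were higher and 8.92% lower. Of 14 tested further genes known as ATF4 targets, 8 rose and 0 fell in HIF1A-null hypoxia and 3 rose and 2 fell in shNT. In the difference between these lines, 4 were higher, led by the aspartate transaminase gene GOT1 (1.54 ± 0.18, adjusted p = 5.43e-05) and the cystine transporter gene SLC7A11 (1.84 ± 0.34, adjusted p = 0.00198), and 1 was lower, GDF15 (-0.57 ± 0.18, adjusted p = 0.0437). Of 16 eIF2 kinases, eIF2B subunits and related regulators, 6 rose and 3 fell in HIF1A-null hypoxia, 2 rose and 7 fell in shNT, and 5 had a higher difference, with ATF3 (1.49 ± 0.27, adjusted p = 0.002), an early stress factor, first. EIF2AK3, which encodes PERK, rose in all 4 lines, by 0.70 ± 0.16 (adjusted p = 0.00235) in shNT and 1.04 ± 0.16 (adjusted p = 0.000121) in HIF1A-null.

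Besides PERK and ATF4, the unfolded protein response has arms that run through ATF6 and through XBP1. Of 16 genes listed for these arms, 15 rose in HIF1A-null hypoxia, 10 in shNT with 2 lower, 6 in shCDK8 and 10 in shTIP60. Over all genes tested, 18.9%, 20.7%, 13.8% and 19.4% rose in these lines in turn, and 20.0% fell in shNT. Whether ATF4 also acts on genes of this list was not tested. The difference between HIF1A-null and shNT was higher for 8 of the 16, with a median of 0.73, where 7.53% of all genes were higher. The degradation factor HERPUD1 (2.46 ± 0.32, adjusted p = 0.00015) and the chaperone HSPA5 (2.22 ± 0.29, adjusted p = 0.000172) had the smallest p. Higher RNA of these listed genes in HIF1A-null hypoxia stood beside the rise of 29 of the 39 genes, and any link between the 2 was not tested. In 6 genes known as hypoxia markers (CA9, VEGFA, ANKRD37, PDK1, NDRG1 and ADM), all 6 rose in each line. The response difference between HIF1A-null and shNT was lower for 3 of the 6 and higher for 0, where 8.92% of all genes were lower. In level, all 6 were lower in HIF1A-null hypoxia than in shNT hypoxia (-7.57 to -0.55), where 20.8% of all genes were lower. CA9 in HIF1A-null rose only from 0.025 and 0.025 CPM to 0.186 and 0.325 CPM, near the floor of 3 counts. In shNT hypoxia CA9 was at 56.0 and 44.2 CPM.

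The HIF1A-null response was also set against those of the shRNA lines, in tests added after seeing the data. It was higher than that of shCDK8 for 26 of the 39 genes and lower for 0, where 11.6% of all genes were called, 4.48% higher and 7.11% lower. Against shTIP60 it was higher for 25 and lower for 0, with 14.6% of all genes called, 6.56% higher and 8.05% lower. For 24 genes it was higher than in all 3 other lines. These 3 tests share the HIF1A-null libraries. DDIT3 exceeded shCDK8 by 3.74 ± 0.41 (adjusted p = 5.56e-05) and shTIP60 by 2.64 ± 0.40 (adjusted p = 0.000601), and ASNS did so by 2.50 ± 0.35 (adjusted p = 0.000369) and 2.55 ± 0.35 (adjusted p = 0.000295). CEBPB differed from shCDK8 (0.88 ± 0.23, adjusted p = 0.0233) but did not pass against shTIP60 (-0.17 ± 0.23, adjusted p = 0.673). The call against shCDK8 was lost without shCDK8 normoxia library A (0.78, adjusted p = 0.0616) or hypoxia library B (0.74, adjusted p = 0.0957), and without HIF1A-null normoxia library B (0.84, adjusted p = 0.0548) or hypoxia library A (0.70, adjusted p = 0.0638). SLC7A1 passed against neither (0.64 ± 0.25, adjusted p = 0.107 and 0.63 ± 0.25, adjusted p = 0.101).

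In normoxia 2 of the 39 genes were higher and 3 lower in HIF1A-null than in shNT, where 11.7% of all genes were called (5.86% in each direction), and by library totals alone the split was 2 and 6. AARS (0.76 ± 0.14, adjusted p = 0.00148) was higher, and TARS (-0.79 ± 0.15, adjusted p = 0.00182), PHGDH (-0.67 ± 0.14, adjusted p = 0.00476) and PSAT1 (-0.61 ± 0.15, adjusted p = 0.0139) were lower. ATF4 itself was at 359 ± 56.5 CPM (SD, n = 2) in HIF1A-null against 358 ± 28.05 CPM (SD, n = 2) in shNT (0.0044 ± 0.14, adjusted p = 0.989). Without shNT normoxia library A the calls of PSAT1 (-0.37, adjusted p = 0.24) and PHGDH (-0.53, adjusted p = 0.0805) were lost, and that of PSAT1 also without HIF1A-null normoxia library B (-0.48, adjusted p = 0.115). The count itself ranged from 3 without shNT normoxia library A to 10 without HIF1A-null normoxia library A.

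In hypoxia 27 of the 39 were higher in HIF1A-null than in shNT and 1 was lower, where 41.1% of all genes were called, 20.3% higher and 20.8% lower. AARS (2.14 ± 0.14, adjusted p = 2.09e-08), CHAC1 (3.05 ± 0.21, adjusted p = 3.79e-08), SESN2 (2.34 ± 0.17, adjusted p = 4.89e-08) and PSAT1 (1.73 ± 0.16, adjusted p = 5.19e-07) had the smallest p. CHAC1 averaged 47.7 ± 0.311 CPM (SD, n = 2) in HIF1A-null hypoxia and 5.74 ± 0.258 CPM (SD, n = 2) in shNT hypoxia. The 1 lower gene was ALDH18A1 (-0.38 ± 0.14, adjusted p = 0.0323), which makes a proline precursor and is named here after its value was seen. Its call was lost when hypoxia library A of HIF1A-null or either of shNT was left out (adjusted p up to 0.179).

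In the shCDK8 line AARS was higher and PHGDH and TARS lower than in shNT in both conditions. This was not particular to shCDK8. In hypoxia AARS was also above shNT (132 and 125 CPM) in shTIP60 (155 and 194 CPM) and HIF1A-null (573 and 556 CPM). PHGDH and TARS were also lower in shTIP60 hypoxia, and neither was called lower in HIF1A-null hypoxia. In normoxia PHGDH and TARS were also lower than in shNT in HIF1A-null and in shTIP60, and AARS was also higher in HIF1A-null. AARS in shTIP60 normoxia, at 159 and 163 CPM, lay above both shNT libraries at 139 and 119.6 CPM. These comparisons share the shNT libraries, so a trait of the shNT line cannot be told apart. In normoxia 3 members were higher and 4 lower than in shNT, with 13.1% of all genes called (5.80% higher, 7.27% lower). AARS (0.84 ± 0.14, adjusted p = 0.000568) and SESN2 (0.76 ± 0.16, adjusted p = 0.00505) were higher, and PHGDH (-0.91 ± 0.14, adjusted p = 0.000394) and TARS (-0.59 ± 0.15, adjusted p = 0.0134) lower. PHGDH stood at 126 and 127 CPM in shCDK8 normoxia, below both shNT libraries at 258 and 216 CPM. SESN2 lost its call without shNT normoxia library B (0.61, adjusted p = 0.0943) or shCDK8 normoxia library A (0.52, adjusted p = 0.0689), and TARS without shNT normoxia library A (-0.44, adjusted p = 0.159) or shCDK8 normoxia library A (-0.43, adjusted p = 0.115). The count fell from 7 to 3 or 4 without any 1 of the 4 libraries.

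In hypoxia 6 members were higher and 6 lower in shCDK8 than in shNT, with 27.9% of all genes called (14.4% higher, 13.4% lower). AARS (0.93 ± 0.14, adjusted p = 0.000161) and WARS (0.82 ± 0.16, adjusted p = 0.00144) were higher, and STC2 (-1.17 ± 0.21, adjusted p = 0.00065) and PHGDH (-0.70 ± 0.14, adjusted p = 0.0019) lower. WARS was also above shNT hypoxia (45.1 and 37.2 CPM) in shTIP60 hypoxia (65.3 and 69.6 CPM) and HIF1A-null hypoxia (121 and 127 CPM). STC2 was at 194 and 199 CPM in shCDK8 hypoxia and at 471 and 416 CPM in shNT hypoxia, with no overlap. DDIT3 was also lower there (-0.96 ± 0.28, adjusted p = 0.0181), a call lost without shNT hypoxia library B (-0.47, adjusted p = 0.307) or shCDK8 hypoxia library A (-0.58, adjusted p = 0.222). TARS was lower too (-0.55 ± 0.15, adjusted p = 0.0126), but not called without shNT hypoxia library B (-0.46, adjusted p = 0.104), shCDK8 hypoxia library A (-0.54, adjusted p = 0.0827) or B (-0.55, adjusted p = 0.0666). Without shNT hypoxia library B or shCDK8 hypoxia library A the count of 12 fell to 7 and 6. The response differences of shCDK8 for DDIT3 (-1.07 ± 0.40, adjusted p = 0.333) and STC2 (-1.24 ± 0.29, adjusted p = 0.121) did not pass.

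In the shTIP60 line RNA of the serine enzymes PHGDH and PSAT1, of SHMT2 and of PYCR1 was lower than in shNT in both conditions. Not all of this was particular to shTIP60. PHGDH and PSAT1 were also lower than in shNT in HIF1A-null normoxia. In shCDK8 both libraries of PHGDH and of SHMT2 lay below both shNT libraries in each condition. In normoxia 10 members were lower and 4 higher than in shNT, with 18.4% of all genes called (10.3% higher, 8.13% lower). SHMT2 (-1.09 ± 0.14, adjusted p = 5.15e-05), PYCR1 (-0.92 ± 0.15, adjusted p = 0.000341), PSAT1 (-0.89 ± 0.15, adjusted p = 0.000665) and PHGDH (-0.81 ± 0.14, adjusted p = 0.000803) were lower. SHMT2 stood at 155 and 143 CPM in shTIP60 normoxia and 343 and 292 CPM in shNT normoxia. CBS was called higher, at 1.56 and 1.33 CPM in shTIP60 and 0 and 0.215 CPM in shNT. The shNT level is near the floor of 3 counts (0.0716 to 0.112 CPM), so no fold is given. ALDH1L2 was at 4.35 and 4.06 CPM in shTIP60, 0.287 and 0.295 CPM in shCDK8 and 1.17 and 1.22 CPM in shNT in normoxia, a change of 1.81 ± 0.40 (adjusted p = 0.00498) in shTIP60 against shNT. The count ran from 6 without shTIP60 normoxia library A, 7 without shNT normoxia library A and 8 without shTIP60 normoxia library B to 14.

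In hypoxia 9 members were lower and 5 higher in shTIP60 than in shNT, with 21.8% of all genes called (11.3% higher, 10.5% lower). CEBPB was higher (1.95 ± 0.17, adjusted p = 7.99e-07), and SHMT2 (-1.55 ± 0.14, adjusted p = 1.59e-06), PHGDH (-0.87 ± 0.14, adjusted p = 0.000398) and TARS (-0.85 ± 0.15, adjusted p = 0.000769) were lower. SHMT2 was at 112 and 116 CPM in shTIP60 hypoxia, against 349 and 316 CPM in shNT hypoxia. The count of 14 fell to 7 without shNT hypoxia library B and to 9 without either shTIP60 hypoxia library. For CEBPB the response difference between shTIP60 and shNT was 1.26 ± 0.23 (adjusted p = 0.0604), which did not pass.

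The 14 genes shown library by library were called in neither response difference of the shRNA lines. For shCDK8 against shNT they were -0.22 for ATF4, -1.07 for DDIT3, 0.21 for TRIB3, 0.031 for CHAC1, -0.26 for SESN2, 0.12 for ASNS, 0.67 for PSAT1, 0.032 for MTHFD2, 0.091 for SLC3A2, 0.14 for SLC7A5, 0.21 for SLC7A1, 0.089 for AARS, 0.24 for GARS and 0.65 for WARS, with adjusted p from 0.256 to 0.983. For shTIP60 against shNT they were 0.12 for ATF4, 0.031 for DDIT3, 0.62 for TRIB3, 0.40 for CHAC1, -0.039 for SESN2, 0.071 for ASNS, 0.12 for PSAT1, 0.015 for MTHFD2, 0.16 for SLC3A2, 0.63 for SLC7A5, 0.22 for SLC7A1, 0.12 for AARS, 0.15 for GARS and 0.24 for WARS, with adjusted p of 0.692 or more. The SE of these differences ran from 0.19 for AARS to 0.40 for DDIT3, and the missing calls do not show that the lines responded alike.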

How the data were processed

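Poly(A) RNA of 16 HCT116 libraries (8 groups of 2) was sequenced on an Ion Torrent Proton, per the labels' protocols. The deposited values are raw read counts per gene symbol. GSNAP, HTSeq 0.5.4p5 and DESeq are named, with hg19/GRCh37, in the submitters' processing notes. Annotation, strand setting and read filters are not given in the sources used here. Column names carry the group but no replicate number.

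Genes were kept by edgeR's filterByExpr over groups (minimum count 10, minimum total 15) and fitted with edgeR 4.0.16 in R 4.3.3: TMM factors, 1 coefficient per group over all 16 libraries (8 residual degrees of freedom), robust quasi-likelihood F tests, two-sided, Benjamini-Hochberg over all 15520 genes. SE is the absolute log2 change over the square root of F. The floor of 3 counts covers counting error only. The fit was tested on simulated counts. There were 15 comparisons: hypoxia against normoxia in 4 lines, 3 lines against shNT in each condition, 3 response differences against shNT and 2 added after seeing the data.

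The members and lists were chosen with earlier results of these data known. Named library by library were ATF4, DDIT3 and the 3 other members per role with the smallest p in the HIF1A-null response difference; per line comparison, up to 4 members with the smallest p; per list of other genes, 2. GDF15, DARS and EIF2AK3 are named outside that rule, after their values were seen. Alternatives were DESeq2 1.42.0, other scalings, filters and fits, and leaving out each library. The result of 1 further gene list is not reported here. Gene coordinates came from GENCODE release 44 lifted to GRCh37.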

Additional observations from a re-analysis of the deposited data

Results flagged for a closer look

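The hypoxia response of HIF1A-null and shNT cells differed, by the edgeR test of the difference itself, for 27 of the 39 genes, each with a higher response in HIF1A-null. On the log2 scale the difference among stress factors was 2.68 for DDIT3, 2.23 for CHAC1, 1.94 for TRIB3, 1.88 for SESN2, 1.45 for CEBPG, 1.08 for CEBPB, 1.04 for ATF4 and 0.94 for PPP1R15A. Among enzymes it was 2.62 for ASNS, 2.34 for PSAT1, 1.30 for MTHFD2 and 0.96 for PHGDH. The transporter genes gave 1.65 for SLC3A2, 1.22 for SLC7A5 and 0.85 for SLC7A1. In tRNA export and charging it was 1.49 for MARS, 1.44 for WARS, 1.38 for AARS, 1.28 for YARS, 1.18 for GARS, 1.01 for IARS, 0.98 for CARS, 0.93 for NARS, 0.84 for XPOT, 0.78 for SARS, 0.75 for TARS and 0.66 for EPRS. DDIT3 and MARS share exonic sequence on opposite strands, and the strand setting of the counting is not given in the sources used here.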

How the results depend on the processing

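No member call changed direction under any alternative run. Of the 27 members with a higher HIF1A-null than shNT response, 20 were called under every alternative, as were 22 of the 30 called in HIF1A-null hypoxia, 8 of 11 in shNT, 1 of 5 in shCDK8 and 7 of 16 in shTIP60. Counts of called members moved by over 1.5 times as follows, and the cause was not tested. With library totals alone, shCDK8 hypoxia gave 10 and HIF1A-null against shNT in normoxia 8. DESeq2 gave 1 for the response difference of shCDK8, 1 for that of shTIP60 and 9 for HIF1A-null normoxia. With no filter except 1 count these were 3, 1 and 9, and shCDK8 hypoxia gave 8. A fit of only the groups compared gave 25 for shTIP60 hypoxia, 1 for the response difference of shTIP60, 17 for HIF1A-null against shCDK8, 2 for HIF1A-null normoxia and 24 for shTIP60 normoxia.

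Leaving out 1 library at a time gave 9 to 11 called members for hypoxia in shNT, 24 to 30 in HIF1A-null, 1 to 5 in shCDK8 and 10 to 12 in shTIP60. The response differences against shNT gave 21 to 27 for HIF1A-null, 0 to 0 for shCDK8 and 0 to 1 for shTIP60, and HIF1A-null gave 18 to 28 against shCDK8 and 19 to 26 against shTIP60. Lines against shNT gave 3 to 10, 3 to 4 and 6 to 14 in normoxia and 23 to 25, 6 to 12 and 7 to 11 in hypoxia, for HIF1A-null, shCDK8 and shTIP60 in turn. The lone library left in a group was assumed to vary like the other groups.

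The columns carry no replicate numbers. A replicate block by library number series, added after seeing the data, gave 10 for shCDK8 hypoxia, 4 and 1 for the response differences of shCDK8 and shTIP60, 13 for HIF1A-null normoxia and 22 for shTIP60 normoxia. Deviations within a series had r of 0.031 to 0.336 across genes over 28 pairs of groups, all positive, with 18 over 0.1 and 10 not. Pairing was taken only where every pair is over 0.1, so the block is not used for the values reported. NUPR1 (2 to 29 counts per library) and CBS (0 to 51) have the least depth of the 39 genes.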
